A study of Bos taurus with 6 samples.

Results

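The handling of fatty acids by longissimus dorsi muscle was followed through 10 genes, chosen by name from the 18010 genes with a value. They were the fatty acid binding proteins FABP3, FABP4, FABP5 and FABP7, the membrane uptake genes CD36, SLC27A1 and SLC27A4, and LPL, GPIHBP1 and VLDLR, which act on lipoproteins at the vessel wall. Muscle RNA of 3 Shandong black cattle (B1 to B3) and 3 Luxi cattle (L1 to L3) was sequenced at 18 months of age, each animal giving its own library. Shandong black cattle derive from Japanese black, Luxi and Bohai black cattle, and Luxi cattle are a local Chinese breed. Each breed came from its own supplier, so breed and supplier cannot be told apart. The comparison asks which of these genes differed between the 2 breeds.

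Fatty acids reach muscle in part as triglyceride in circulating lipoproteins. Lipoprotein lipase, held on the capillary wall by GPIHBP1, releases them, and CD36 and the SLC27A transport proteins help them across the cell membrane. Inside the cell, small binding proteins carry them through the water phase, FABP3 chiefly in muscle and heart fibres and FABP4 chiefly in fat cells.

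Levels are given as FPKM, which corrects the fragments of a transcript for its length and for the depth of the library, so that genes can be compared per length. Each library rested on 14.1 to 17.99 gigabases of aligned sequence, with the Luxi libraries deeper. Muscle markers such as ACTA1 and CKM were abundant in every animal, and haemoglobin genes summed to at most 1.34 FPKM. However, the summed FPKM of 6 muscle markers was 23318 in Luxi 1 against 63657 and 72383 in the other Luxi cattle. Most of this sum was ACTA1 in every animal. In Luxi 1, ACTA1, CKM, DES and PYGM were lower than in the other Luxi cattle, while MB and TTN lay between them. Without Luxi 1, the number of genes called over the whole genome rose from 251 to 593, so the values below are also given without this animal where they carry a result. Calls required a limma adjusted p under 0.05 together with an absolute log2 fold change of 1 or more, and fold changes are Luxi minus Shandong black on the scale of log2(FPKM + 1), which understates the change of low genes. The median log2 fold change over the 9781 genes tested was 0.13, and 0.02 after scaling by size factors.

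FABP4 was the only one of the 10 genes that was called, and it was lower in Luxi cattle. A mean FPKM of at least 1 in 1 breed, which entry to the test required, was reached by 8 of the 10 genes, GPIHBP1 through Luxi cattle alone. In the same test 2.57% of all genes were called, 1.02% as lower and 1.54% as higher in Luxi cattle. FABP3 and FABP4 were lower in every Luxi animal than in any Shandong black animal, and LPL was higher in every Luxi animal, which makes 3 of 8 genes without overlap. Over all genes tested, the breeds did not overlap in 29.1%, with 9.13% lower and 20.0% higher in Luxi cattle. Genes without overlap were thus common in the whole transcriptome, and their share among the 8 genes was near that background.

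**Figure D1:**
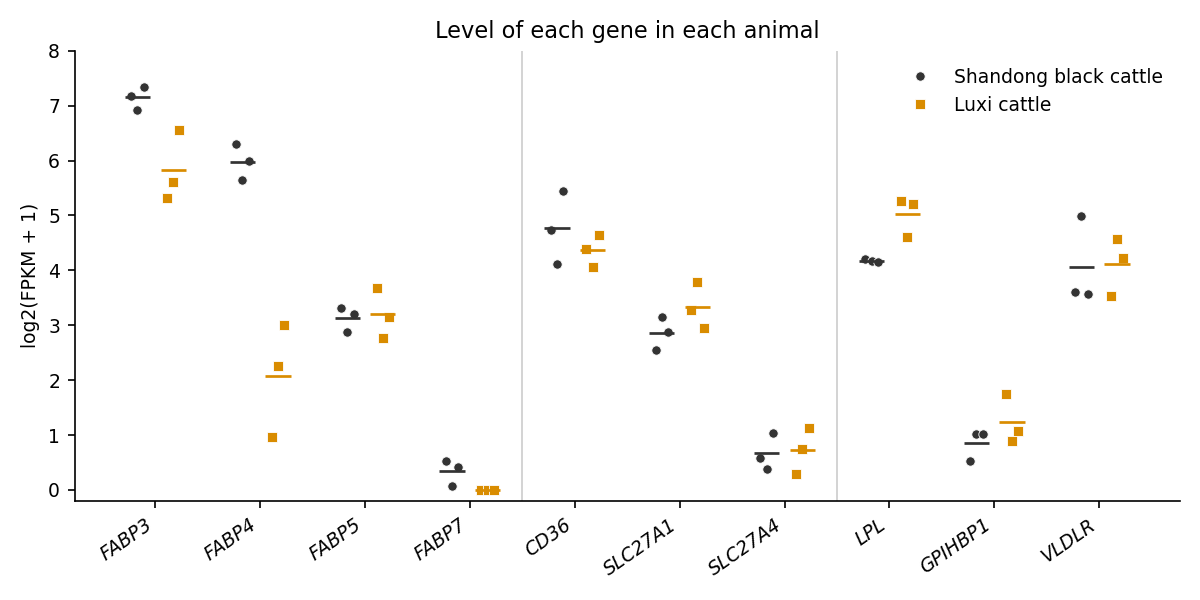
Level of the 10 genes as log2(FPKM + 1) in each of 3 Shandong black cattle (black circles) and 3 Luxi cattle (orange squares), with a line at the mean of each breed. The breeds are apart for FABP3, FABP4, LPL and the very low FABP7, and they overlap for the other genes.

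On ARS-UCD1.2, the build of all coordinates given, FABP4 occupies chromosome 14 from 44676559 to 44680947 on the minus strand. Its FPKM was 78.1, 48.9 and 62.8 in Shandong black cattle 1 to 3 and 0.956, 3.79 and 7.003 in Luxi cattle 1 to 3. The lowest Shandong black animal was thus far above the highest Luxi animal, and all of this signal was on the annotated transcript. The means were 63.3 ± 14.6 and 3.92 ± 3.03 (SD, n = 3 each), which is 16.2-fold higher in Shandong black cattle. FABP4 fell by 3.90 on the log2 scale in Luxi cattle (SE 0.49, limma adjusted p = 0.0195). The call was lost without Luxi 2 (limma adjusted p = 0.0565), without Shandong black 1 (limma adjusted p = 0.0833), without Shandong black 3 (limma adjusted p = 0.0934) and without a filter on FPKM (limma adjusted p = 0.0622), while the log2 fold change stayed between -4.37 and -3.35 when any animal was left out. Without Luxi 1 the gene was called (log2 fold change -3.35, limma adjusted p = 0.0115).

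Markers of fat cells moved with FABP4. In bulk muscle, fewer fat cells and less RNA per fat cell cannot be told apart. All 6 fat cell markers tested were lower in every Luxi animal, and ADIPOQ, PLIN1, CIDEC and LIPE were called, with a median of -2.12 for the log2 fold changes of the 6. The count of 4 was 1 without Shandong black 1 or 3, 2 without Luxi 2 or 3 and 3 without Shandong black 2, and PLIN1 was called whichever animal was left out. It was also 2 with the smaller pseudocount (0.1) and with the replicate number as a block, and 1 with all low genes kept, and PLIN1 was called in each. The summed FPKM of the 7 markers found ranged from 70.2 to 105 in Shandong black cattle and from 2.37 to 13.6 in Luxi cattle, and none of them was at 0 in all Luxi animals. The ratio of FABP4 to ADIPOQ, an adipokine, was 1.16, 1.59 and 1.17 in Shandong black cattle and 1.66, 0.658 and 1.04 in Luxi cattle. Relative to this gene, FABP4 overlapped between the breeds (exact two-sided permutation p = 0.5), as it did relative to PLIN1, the protein that coats fat droplets (exact permutation p = 0.9). Of the 5 tested fat cell markers above 0 in every animal, the ratio overlapped for 3 and was lower in every Luxi animal for LIPE and THRSP. These ratios were chosen after the values had been seen, and the part of fat cells in the FABP4 difference was not tested. Macrophages also make FABP4, and the summed FPKM of their 7 markers was 29.5 to 40.4 in Shandong black and 12.5 to 30.5 in Luxi cattle, with none of the 5 tested called by limma and 2 at an unadjusted p under 0.05. All 5 had a negative log2 fold change. CSF1R and C1QA were lower in every Luxi animal, while CD163, C1QB and AIF1 overlapped between the breeds. The part of macrophages was not tested either.

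FABP3, the heart and muscle binding protein, was the most abundant of the 10 genes in both breeds. It lies on chromosome 2 from 122287099 to 122294639. Its FPKM was 144, 120.5 and 161 in Shandong black cattle and 38.8, 47.8 and 93.3 in Luxi cattle. No Luxi animal reached the lowest Shandong black animal, with means of 142 ± 20.2 and 59.97 ± 29.2 (SD, n = 3 each). The log2 fold change was -1.32 (SE 0.37, 95% interval -2.18 to -0.46), and the gene was not called (limma adjusted p = 0.103). It was called on TPM (limma adjusted p = 0.0490) and after quantile normalization (limma adjusted p = 0.0424). Without Luxi 1 the log2 fold change was -1.06 (limma adjusted p = 0.0918).

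Markers of slow fibres, which burn fatty acids, were also lower in sum, although less evenly. The summed FPKM of 6 slow fibre genes ranged from 7061 to 8934 in Shandong black cattle and from 1701 to 6239 in Luxi cattle. Most of this sum was TNNC1 in every animal, with means of 5037 and 2772 FPKM, and TNNC1 was not called (limma adjusted p = 0.346). MYH7 and ATP2A2 overlapped between the breeds. Of the 6 genes, 5 had a negative log2 fold change, and the slow troponin TNNI1 was called as lower, a call that was lost without any 1 of the Shandong black animals, without Luxi 2, with the smaller pseudocount (0.1), with all low genes kept and on reference transcripts alone. The slow light chain MYL3 was the exception, with 28.7 FPKM in Shandong black and 496 in Luxi cattle, and it was highest in Luxi 1. All 7 fast fibre genes had a positive log2 fold change, with a median of 2.24, and limma called none of them, although 6 had an unadjusted p under 0.05. Without Luxi 1 the median was 3.19, and ACTN3, ATP2A1, MYLPF and TNNI2 were called as higher. Relative to TNNI1, FABP3 was higher in every Luxi animal, with ratios of 0.330, 0.204 and 0.327 against 0.439, 0.817 and 0.490 (exact permutation p = 0.1). TNNI1 had the most negative log2 fold change of the 6 slow fibre genes, -2.32. Ratios to the other slow fibre genes were not taken, so this ratio holds for TNNI1 alone. Relative to myoglobin (MB), the oxygen store of muscle, it was lower in every Luxi animal, with mean ratios of 0.0201 and 0.00786 (exact permutation p = 0.1, the smallest that 3 against 3 animals allow). The part of fibre type in the FABP3 difference was not tested.

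Besides the annotated FABP3 transcript, each animal had 1 or 2 assembled transcripts that started between 698 and 1099 bases upstream of the annotated start. The annotated transcript held 87.9, 63.1 and 76.6% of the FABP3 FPKM in Shandong black cattle and 73.1, 45.97 and 73.1% in Luxi cattle. These shares overlapped between the breeds, and on reference transcripts alone the log2 fold change was -1.57.

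FABP5, the epidermal binding protein, which many cell types express, showed no such difference. It lies on chromosome 14 like FABP4, from 44488912 to 44494877, and ends 182 kilobases before that gene. Its FPKM was 8.96, 6.37 and 8.25 in Shandong black cattle and 11.9, 5.77 and 7.85 in Luxi cattle. The breeds overlapped, and the log2 fold change of 0.06 (95% interval -0.57 to 0.69, limma adjusted p = 0.917) took the opposite sign under other scalings of the libraries. The ratio of FABP4 to FABP5 was 8.71, 7.67 and 7.61 in Shandong black cattle and 0.0806, 0.656 and 0.892 in Luxi cattle. FABP4 thus exceeded FABP5 in every Shandong black animal and in no Luxi animal (exact permutation p = 0.1).

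FABP7, the brain binding protein, lies on chromosome 9 from 28476061 to 28479847 and was barely present. It had 0.446, 0.0446 and 0.340 FPKM in Shandong black cattle and was not listed in any Luxi animal, which counts here as 0. The gene was too low to enter the test, and no fold is given against a breed at 0. Schwann cells of nerves are known to make FABP7, and the summed FPKM of 5 Schwann cell markers was 48.1 to 120.2 in Shandong black and 9.48 to 29.2 in Luxi cattle, nearly all of it S100B. The other marker tested, MBP of myelin, was higher in every Luxi animal, with 0.348 and 1.49 FPKM. Limma called neither, both had an unadjusted p under 0.05, and S100B was called as lower without Luxi 1. The part of these cells was not tested.

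Summed over the 4 binding proteins, FPKM was 232, 176 and 232 in Shandong black cattle and 51.6, 57.4 and 108 in Luxi cattle. The shares of this sum follow from the levels of the single genes and are not a separate result. FABP4 made up 29.5 ± 3.62% of it in Shandong black and 4.98 ± 2.71% in Luxi cattle (SD, n = 3 each, exact permutation p = 0.1). The share of FABP3 was 66.7 ± 3.84% and 81.6 ± 5.75%, and that of FABP5 was 3.68 ± 0.161% and 13.4 ± 8.39%. FABP3 therefore formed most of the sum in every animal.

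**Figure D2:**
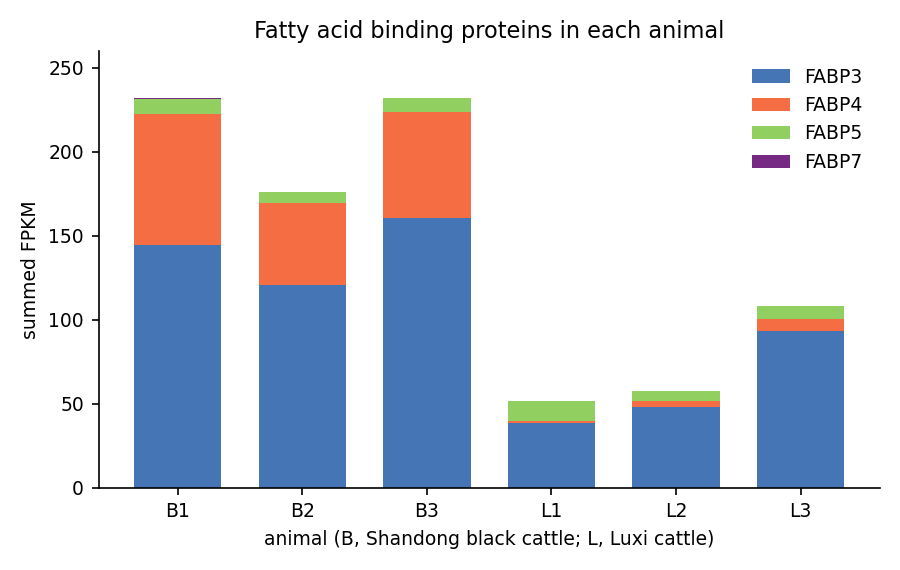
Summed FPKM of the 4 fatty acid binding proteins in each animal, from 3 Shandong black cattle (B1 to B3) and 3 Luxi cattle (L1 to L3), stacked by gene from 0. The stack is 176 to 232 FPKM in Shandong black and 51.6 to 108 in Luxi cattle, and the FABP4 layer is thin in all Luxi animals.

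CD36, the fatty acid translocase of muscle, fat and capillary cells, was not called in its summed level. With assembled transcripts counted, the share of its upstream start separated the breeds, while on reference transcripts alone this share overlapped. The gene spans chromosome 4 from 40380301 to 40474056 on the minus strand. Its FPKM was 25.7, 16.3 and 42.4 in Shandong black cattle and 19.95, 15.7 and 24.1 in Luxi cattle. The breeds overlapped, with a log2 fold change of -0.40 (95% interval -1.24 to 0.44, limma adjusted p = 0.546). The sign held in all alternatives, with values between -1.16, on reference transcripts alone, and -0.06, without Shandong black 3.

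Nearly all CD36 signal came from transcripts with one of 2 starts, an upstream one between 40474056 and 40474047 and a downstream one between 40443423 and 40443287, which are 30.6 kilobases apart. The FPKM of transcripts from the upstream start was 3.18, 2.41 and 3.25 in Shandong black cattle and 6.88, 14.1 and 15.9 in Luxi cattle. That from the downstream start was 21.9, 12.8 and 38.0 in Shandong black cattle and 12.7, 1.10 and 7.08 in Luxi cattle. The upstream start was thus higher, and the downstream start lower, in every Luxi animal, although Luxi 1 came close to Shandong black 2 for the latter. The upstream start gave 12.4, 14.7 and 7.66% of CD36 in Shandong black cattle and 34.5, 89.9 and 65.97% in Luxi cattle. The mean shares were 11.6 ± 3.60% and 63.4 ± 27.8% (SD, n = 3 each), a difference of 51.9 percentage points with the smallest exact permutation p possible, 0.1. The coverage of the first exons was summed over these same transcripts, so it is not independent of their FPKM. For the upstream exon it was 3.30, 6.47 and 4.34 per aligned gigabase in Shandong black and 11.8, 11.6 and 14.9 in Luxi cattle. The breeds did not overlap, although the animals fell in another order within each breed.

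**Figure D3:**
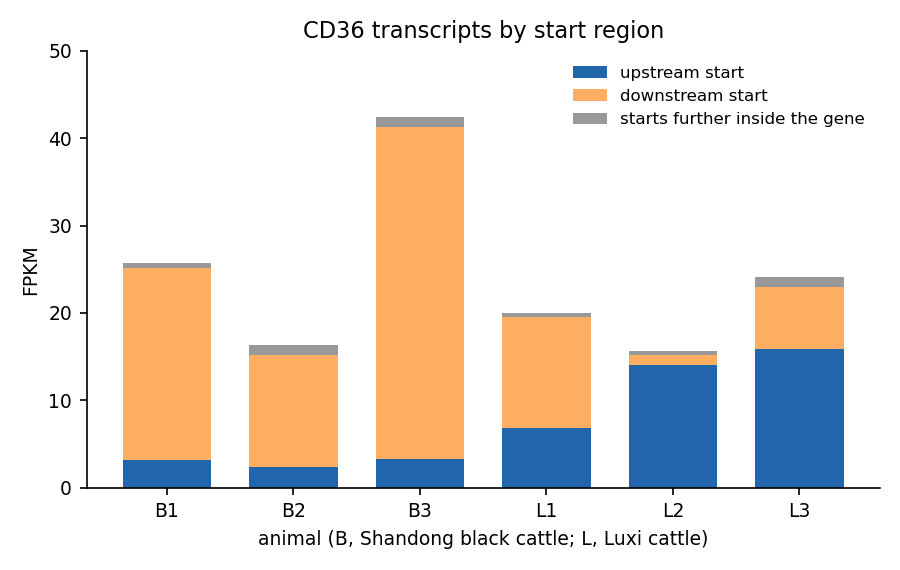
FPKM of CD36 transcripts in each animal, stacked from 0 by the region in which the transcript starts (upstream, blue; downstream, orange; further inside the gene, grey). The blue part is 2.41 to 3.25 FPKM in the 3 Shandong black cattle and 6.88 to 15.9 in the 3 Luxi cattle.

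This pattern was noticed after the transcripts had been looked at. Among the 1644 genes tested that had at least 2 start regions more than 1000 bases apart, each with at least 10% of the FPKM, the share of the most upstream region did not overlap between the breeds in 13.8%. A difference at least as large as that of CD36 was found in 94 of them, or 5.72%, and the median difference was 16.7 points. On reference transcripts alone the upstream shares overlapped, at 7.93, 0.000404 and 4.88% in Shandong black cattle and 4.14, 46.7 and 16.8% in Luxi cattle, a difference of 18.3 points. The difference was 66.4 points without Luxi 1 and 38.6 points without Luxi 2. With the spliced transcripts that had been left out for lying mostly off the annotated exons, it was 49.9 points and the breeds remained apart.

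No CD36 transcript joined the upstream start to the long 3′ end, so values of the 2 are not independent. Transcripts with the long 3′ end, which reach to 40380301, had 6.64, 1.23 and 5.77 FPKM in Shandong black cattle and 0.367, 0.506 and 0.362 in Luxi cattle. Each Luxi animal was lower than each Shandong black animal (exact permutation p = 0.1). As a share of the transcripts that do not use the upstream start, the long end overlapped between the breeds, at 29.5, 8.84 and 14.7% against 2.80, 31.96 and 4.42% (exact permutation p = 0.6).

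SLC27A1, the fatty acid transport protein of muscle and fat, lies on chromosome 7 from 5604418 to 5644692 on the minus strand. Its FPKM was 4.86, 7.93 and 6.33 in Shandong black cattle and 8.67, 12.9 and 6.76 in Luxi cattle. The breeds overlapped, and the gene was not called (log2 fold change 0.48, 95% interval -0.15 to 1.11, limma adjusted p = 0.342). On reference transcripts alone its log2 fold change was -0.53, since assembled transcripts carried much of it in Luxi cattle. The reference share was 100, 86.3 and 100% in Shandong black cattle and 82.5, 32.1 and 24.4% in Luxi cattle. In Luxi 2 and Luxi 3, transcripts that started 1.40 to 1.69 kilobases upstream of the annotated start gave 33.8 and 75.6% of the FPKM. No such transcript was counted toward the gene in Luxi 1 or in Shandong black cattle, although 1 left-out spliced transcript of 0.765 FPKM began there in Shandong black 3.

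SLC27A4, a transport protein of the same family, lies on chromosome 11 from 98946021 to 98959917 and was low in both breeds. It had 0.499, 0.299 and 1.05 FPKM in Shandong black cattle and 0.227, 0.677 and 1.199 in Luxi cattle, below the level needed for the test. Except in Shandong black 2, all of this was on assembled pieces of the gene.

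LPL, the lipase that frees fatty acids from triglyceride, was higher in Luxi cattle, opposite to FABP4. It lies on chromosome 8 from 66989665 to 67016694. Its FPKM was 17.5, 17.0 and 16.7 in Shandong black cattle and 37.2, 23.3 and 36.2 in Luxi cattle. Shandong black cattle were nearly identical to each other, and every Luxi animal was above them, with means of 17.1 ± 0.414 and 32.2 ± 7.76 (SD, n = 3 each). The log2 fold change was 0.85 (SE 0.24, 95% interval 0.28 to 1.42), under the required size of 1, and limma did not call the gene (adjusted p = 0.106). It was positive in all alternatives, from 0.70 to 1.06, and was 0.74 without Luxi 1 (limma adjusted p = 0.0875).

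Fat cells are a known source of LPL. The ratio of LPL to PLIN1 was 1.31, 0.972 and 1.29 in Shandong black cattle and 95.3, 20.2 and 32.2 in Luxi cattle, and the part of fat cells in the LPL values was not tested. LPL acts on the surface of capillary endothelium, and markers of these cells were mixed. PECAM1, CDH5 and EMCN were higher in every Luxi animal, KDR, TEK, ESAM, CLDN5 and TIE1 overlapped between the breeds, and the log2 fold changes of the last 2 were 0.01 and -0.22. The median over the 8 markers was 0.63, and 0.16 without Luxi 1. The summed FPKM of the 8 endothelial markers was 26.8 to 28.4 in Shandong black and 32.9 to 92.9 in Luxi cattle, highest in Luxi 1. Of these 8 markers limma called none, 3 had an unadjusted p under 0.05, and CDH5 was called without Luxi 2. The ratio of LPL to PECAM1 was 1.95, 1.87 and 1.95 in Shandong black cattle and 1.28, 1.99 and 2.503 in Luxi cattle, with overlapping ranges (exact permutation p = 1). Over all 8 markers this ratio overlapped for 4, was higher in every Luxi animal for TIE1 and CLDN5, and was lower in every Luxi animal for CDH5 and EMCN, so it depended on the marker taken. The part of endothelial cells in the LPL difference was not tested.

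**Figure D4:**
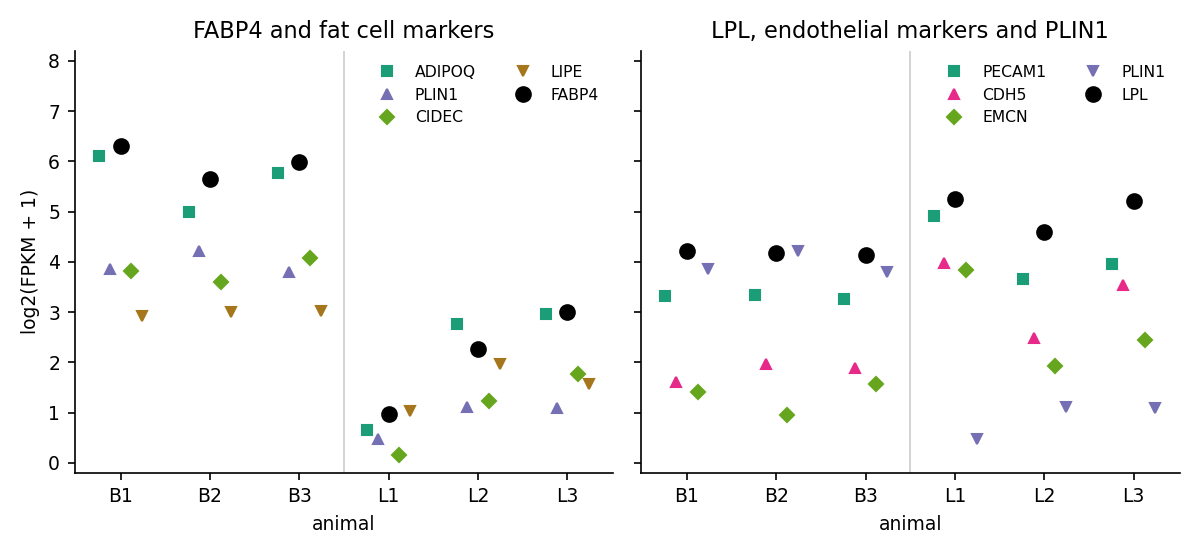
FABP4 beside 4 fat cell markers (left) and LPL beside 3 endothelial markers and PLIN1 (right), as log2(FPKM + 1) in each animal (B, Shandong black cattle; L, Luxi cattle). The 3 endothelial markers shown, PECAM1, CDH5 and EMCN, are those of the 8 tested that were higher in every Luxi animal. KDR, TEK, ESAM, CLDN5 and TIE1 overlapped between the breeds and are not shown. FABP4 and the fat cell markers are all lower in L1 to L3, while LPL is higher there and PLIN1 lower.

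GPIHBP1, the protein that carries LPL to the capillary surface, lies on chromosome 14 from 1348163 to 1350356. It had 0.449, 1.02 and 1.03 FPKM in Shandong black cattle and 2.34, 0.859 and 1.12 in Luxi cattle. The breeds overlapped (log2 fold change 0.38, 95% interval -0.25 to 1.01, limma adjusted p = 0.433), and reference transcripts held only 0 to 4.498% of its FPKM. LPL outnumbered GPIHBP1 by 16.1 to 39.0 times in Shandong black and by 15.9 to 32.4 times in Luxi cattle, ranges that overlapped.

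VLDLR, a receptor that docks triglyceride-rich lipoproteins, lies on chromosome 8 from 41828344 to 41859824. Its FPKM was 11.2, 30.6 and 10.9 in Shandong black cattle and 10.6, 22.8 and 17.8 in Luxi cattle. Shandong black 2 was the highest of the 6 animals, and the spread within each breed exceeded the difference between them. The log2 fold change was 0.06 (95% interval -0.99 to 1.10, limma adjusted p = 0.956) and changed sign under other scalings.

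**Figure D5:**
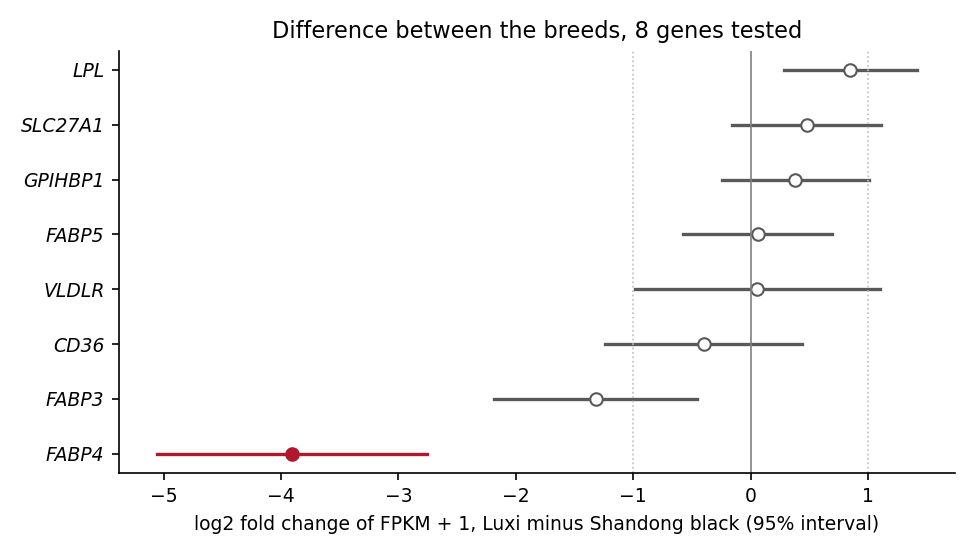
Log2 fold change of FPKM + 1, Luxi minus Shandong black, for the 8 genes tested, with the 95% interval from limma as a line and dotted lines at -1 and 1. FABP4 (filled) was called, FABP3 and LPL have intervals on one side of 0 without being called, and the other 5 intervals include 0.

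The order of the genes by level differed between the breeds. In Shandong black cattle it was FABP3, FABP4, CD36, VLDLR, LPL, FABP5, SLC27A1, GPIHBP1, SLC27A4 and FABP7. The ranges of neighbours overlapped for CD36 with VLDLR, VLDLR with LPL, FABP5 with SLC27A1, GPIHBP1 with SLC27A4 and SLC27A4 with FABP7. In Luxi cattle LPL was in place 2, FABP4 was in place 7, and SLC27A1 and FABP5 changed places. There, neighbouring ranges overlapped throughout, except for FABP3 above LPL and SLC27A4 above FABP7.

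The genes with profiles most like the members over the 6 animals were taken by the root mean square difference of mean-centred log2(FPKM + 1). For FABP4 they were CSRP3 (difference 0.33), the muscle LIM protein, then ADIPOQ (0.34) and TRARG1 (0.53). CSRP3 is a gene of muscle fibres and not of fat cells, and its FPKM was 3213 to 3309 in Shandong black and 146 to 627 in Luxi cattle. The nearest to FABP3 were ALDH1A1, YPEL5 and LMOD2, at 0.14 to 0.15. MED28, ARPC1B and FAM43B were nearest to CD36, at 0.15 to 0.20. The nearest to LPL were the chemokine CXCL12, at 0.06, then PIK3R1 and RSRP1, both at 0.10.

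Of 51 further genes of fatty acid binding and uptake on 5 lists, 35 had a value and 29 were tested. Limma called none, 6 had an unadjusted p under 0.05, and the median log2 fold change was 0.07 against 0.13 over all genes tested. The breeds did not overlap in 7 genes that were higher and 5 that were lower in Luxi cattle, where the shares over all genes were 20.0% and 9.13%. Without Luxi 1, PPARG, PPARGC1A and RXRA were called.

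Among other lipid binding proteins, CRABP2, which carries retinoic acid, had 2.58 FPKM in Shandong black and 0.461 in Luxi cattle (log2 fold change -1.31, limma adjusted p = 0.0822). The breeds did not overlap for this gene. The acyl-CoA binding protein DBI had 22.8 and 26.4 FPKM. Among other uptake genes, 9 were tested. GOT2, a mitochondrial aminotransferase also described as a fatty acid binding protein of the plasma membrane, had a log2 fold change of -0.80. SCARB2, a lysosomal membrane receptor, and CAVIN1, a coat protein of caveolae, had values of 0.59 and 0.48.

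In the handling of lipoprotein lipase, endothelial lipase (LIPG) had the largest log2 fold change, 1.32, from 1.84 to 6.80 FPKM, with overlapping breeds. SEL1L, which helps LPL to leave the endoplasmic reticulum, and ANGPTL4, an inhibitor of LPL, had values of 0.30 and 0.28. For ANGPTL4 the Luxi animals ranged from 0.345 FPKM in Luxi 1 to 14.8 in Luxi 3. Among other lipoprotein receptors, the log2 fold changes of SORL1 and LRPAP1 were -0.54 and -0.38.

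The PPAR receptors are activated by fatty acids, and FABP4, CD36 and LPL are among their known targets. PPARG, the form of fat cells, had 3.31, 4.81 and 3.02 FPKM in Shandong black cattle and 2.12, 1.10 and 1.27 in Luxi cattle. It was lower in every Luxi animal without being called (log2 fold change -0.92, limma adjusted p = 0.0791). Its partner RXRA was higher in every Luxi animal (0.86, limma adjusted p = 0.161). The coactivator PPARGC1A had 2.07, 1.70 and 1.92 FPKM in Shandong black cattle and 44.5, 5.18 and 7.14 in Luxi cattle (2.19, limma adjusted p = 0.129), so that Luxi 1 stood far above the others of its breed.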

How the data were processed

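Longissimus dorsi RNA was sequenced from 3 Shandong black and 3 Luxi cattle. After trimming with Fastp and alignment to ARS-UCD1.2 with HISAT, the authors assembled each library by StringTie (1.3.3b per the file headers), guided by the NCBI annotation with a stranded setting. They deposited coverage, FPKM and TPM per transcript packed in 1 text column. The kit named in the labels was not stated there to keep strand, so overlapping antisense signal is uncertain.

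Here gene FPKM was the sum over reference transcripts and over same-strand assembled transcripts that had 50% or more of their bases on its exons. A transcript not listed was counted as 0. The assembled transcripts that were left out made up 21.6 to 29.8% of each library's FPKM. Of the gene names, 91.4% were found in a gene table of ARS-UCD2.0, used for names only.

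Genes whose mean FPKM reached 1 in either breed were fitted with limma 3.58.1 in R 4.3.3 (lmFit, eBayes with trend) on log2(FPKM + 1), with Benjamini-Hochberg adjustment over all 9781 genes and no covariate. The procedure was tested on simulated data. Single values were compared by exact two-sided permutation tests, which cannot give a p under 0.1 with 3 animals per breed. The files hold no read counts, so no counting error is given and the number of animals limits the precision. The alternatives were a pseudocount of 0.1, no filter, TPM, size factors, quantile normalization, eBayes without trend, reference transcripts only, a replicate block, adjusted p alone and leaving out each animal.

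The 10 genes, the lists of other genes and the marker lists were chosen with earlier results of these data known. The text names all 10 genes, every listed gene called, up to 3 per list with the largest log2 fold change, and the 3 most alike profiles for FABP4, FABP3, CD36 and LPL. Some genes that this rule would name are not reported here. Start regions and ratios within an animal were chosen after seeing the data. Cuffdiff, which the methods of the study name, works on alignments and was not run.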

Additional observations from a re-analysis of the deposited data

How the results depend on the processing

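The number of genes called moved from 251 to 47 without a filter on FPKM, to 163 on reference transcripts alone and to 135 with a replicate block, and ranged from 3 (without Shandong black 3) to 593 (without Luxi 1) when 1 animal was left out. It was 10 without Shandong black 1, 44 without Luxi 2 and 87 without Luxi 3. Of the calls, 151 were higher and 100 lower in Luxi cattle, against 115 and 149 with size factors and 124 and 164 after quantile normalization. Among the 10 genes the count of 1 became 0 without a filter, 2 on TPM and 2 after quantile normalization, where FABP3 joined FABP4, and 0 to 1 when 1 animal was left out. Among the other lists the count of 5 became 2 with a pseudocount of 0.1 and 1 without a filter, and ranged from 1 (without Shandong black 1 or 3) to 13 (without Luxi 1). It was 3 without Shandong black 2, Luxi 2 or Luxi 3.

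The directions of FABP3, FABP4, CD36, LPL and GPIHBP1 held in every alternative that gave a value. GPIHBP1 gave none on reference transcripts or without Luxi 1. FABP5 changed sign on TPM (-0.051), with size factors (-0.078) and after quantile normalization (-0.073), and ranged from -0.18 to 0.28 when 1 animal was left out. For VLDLR these values were -0.060, -0.095 and -0.12, with a range from -0.19 to 0.52. SLC27A1 changed sign on reference transcripts alone (-0.53). The causes were not tested.

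Same-numbered animals of the breeds are different animals, and the correlations of their deviations from the breed means were 0.084, 0.087 and 0.075. Each animal correlated best with its own number in the other breed, as a hint from the data only. These correlations were small, and whether they exceed chance was not tested. With the replicate block FABP4 was called, as the only one of the 10 genes. The count over the other lists was again 5, but ADIPOQ, LIPE and TNNI1 were no longer called, and CRABP2, S100B and TNNT3 were. The 3 animals per breed limit the precision. Results also depended on the filter and on the transcripts counted, and breed and supplier cannot be told apart.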

Other observations

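Assembled transcripts on the strand opposite to SLC27A4, within the span of the gene, had 0.948, 1.25 and 0.804 FPKM in Shandong black cattle and 1.59, 2.60 and 1.51 in Luxi cattle. They were higher than SLC27A4 itself in every animal but Shandong black 3, and higher in every Luxi animal than in any Shandong black animal (exact two-sided permutation p = 0.1). They were not counted toward the gene. Since the library kit was not stated to keep strand, their strand is uncertain. Opposite to LPL, such transcripts were instead lower in every Luxi animal. They had 0.313, 0.436 and 0.436 FPKM in Shandong black cattle and 0, 0.251 and 0.163 in Luxi cattle. Over all genes tested the breeds did not overlap in 29.1%, and this share was not taken over opposite-strand transcripts.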
